A study of Mus musculus with 7 samples.

Results

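Cholesterol synthesis was examined in mouse retina through 8 genes: Hmgcs1, Idi1, Fdps, Fdft1, Sqle, Cyp51 and Dhcr7, which encode enzymes of the pathway, and Insig1, which encodes a sensor protein that restrains it. They were taken by gene name, from a choice made with earlier results of these data known, and all 8 were found among the 16143 genes of the tables, where they have 33 of the 55404 transcripts used. Retinas of ICR mice, an outbred stock, were taken at embryonic day 17.5 and electroporated with an EGFP plasmid together with either a control plasmid or a plasmid for shKmt2f, a hairpin that targets Kmt2f, which is another name of Setd1a. The series' design text gives the age as day 17. After 2 days as explants, the EGFP-positive cells, which are those that took up DNA, were sorted and their RNA was amplified from 1 ng with SMART-Seq v4. There were 3 control and 4 shKmt2f libraries, and the sorted cells were a mixture of retinal cell types. The promoters of the plasmids and the cells in which they act are not given in the sources used here. Setd1a is a methyltransferase of histone H3 at lysine 4, and the comparison asks which transcripts differ when it is knocked down. Whether each library had its own animal or culture is not in the labels, and the p-values therefore reflect library-to-library spread that may be technical.

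As background, animal cells make cholesterol from acetyl-CoA. The early steps give mevalonate and then isoprenoid units, which farnesyl diphosphate synthase joins. At farnesyl diphosphate the pathway divides, with squalene synthase leading to sterols and other enzymes leading to protein prenyl groups, dolichol and ubiquinone. Most of these genes are activated by SREBP2, a membrane-bound transcription factor. When sterol is low, SCAP carries SREBP2 to the Golgi, where it is cut and released. When sterol is high, INSIG proteins hold SCAP in the endoplasmic reticulum. SREBP binds sterol regulatory elements next to sites for NF-Y, which reads CCAAT, and Sp1, which reads GC boxes. Neural tissue, the retina included, makes cholesterol locally.

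Promoter windows from RefSeq (GRCm38.p6) were matched for 5 of the 8 genes, with 7 windows in all because Dhcr7 has several starts. The 250 bases before the RefSeq start are printed below for Hmgcs1, Idi1, Cyp51 and Insig1. Control replicate 2 was the highest control for Hmgcs1, Idi1 and Cyp51 and the lowest for Insig1. Within the shKmt2f libraries Hmgcs1 and Idi1 did not rise and fall together. Capitals mark matches on either strand to TCACNCCAC, a form of the sterol regulatory element, to CCAAT, to the GC box GGGCGG and to the E-box CACGTG, and no 2 of the marked matches overlap. In the GENCODE annotation Idi1, Cyp51 and Insig1 begin inside these windows.
Hmgcs1, chr13:119690101-119690350, plus strand: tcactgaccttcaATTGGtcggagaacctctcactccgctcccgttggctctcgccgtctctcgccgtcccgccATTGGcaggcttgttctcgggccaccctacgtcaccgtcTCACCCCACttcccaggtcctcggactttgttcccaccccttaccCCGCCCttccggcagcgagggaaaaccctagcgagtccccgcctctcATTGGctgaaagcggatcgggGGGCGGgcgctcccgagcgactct
Idi1, chr13:8885356-8885605, plus strand: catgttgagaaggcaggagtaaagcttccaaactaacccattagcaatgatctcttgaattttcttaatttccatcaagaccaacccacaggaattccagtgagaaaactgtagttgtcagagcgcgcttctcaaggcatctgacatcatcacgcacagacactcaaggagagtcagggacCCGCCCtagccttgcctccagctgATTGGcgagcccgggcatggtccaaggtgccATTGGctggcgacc
Cyp51, chr5:4104698-4104947, minus strand: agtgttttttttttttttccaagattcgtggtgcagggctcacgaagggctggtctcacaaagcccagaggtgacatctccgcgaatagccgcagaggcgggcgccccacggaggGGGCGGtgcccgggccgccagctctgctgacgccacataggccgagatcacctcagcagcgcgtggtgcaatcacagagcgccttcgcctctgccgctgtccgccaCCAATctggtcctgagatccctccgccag
Insig1, chr5:28071162-28071411, plus strand: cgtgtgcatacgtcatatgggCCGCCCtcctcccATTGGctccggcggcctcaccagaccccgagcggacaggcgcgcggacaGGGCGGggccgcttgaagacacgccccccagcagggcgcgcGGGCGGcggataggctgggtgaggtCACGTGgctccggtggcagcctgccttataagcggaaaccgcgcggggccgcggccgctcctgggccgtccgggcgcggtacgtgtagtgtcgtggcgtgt
The Hmgcs1 window holds TCACCCCAC from 137 to 129 bases before the start, with 3 CCAAT matches and 2 GC boxes. Of all 32851 RefSeq windows of this length, 1.05% hold a match to TCACNCCAC. The Idi1 window has 2 CCAAT matches and 1 GC box, and the Cyp51 window has 1 of each. The Insig1 window has 1 CCAAT match, 3 GC boxes and an E-box from 101 to 96 bases before the start. CCAAT is present in 33.8% of all windows, GGGCGG in 32.7% and CACGTG in 6.02%. A match is a run of letters only and was not tested as a binding site.

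The unit is TPM, a share of a library's transcripts corrected for transcript length, and it keeps no sequencing depth, so the depth is unknown and values carry no counting error. Each library held between 11840 and 12318 genes at 1 TPM or more. Limma on log2(TPM + 1), with Benjamini-Hochberg adjustment and a threshold of 0.05, called 1755 of 12456 genes, of which 73.8% were higher in shKmt2f. That share was 57.6% with median-ratio scaling, 48.9% after a GC and length correction and 62.4% with length-weighted sums. The number of calls rested on single libraries: it was 286, 3004 and 351 without control replicates 1, 2 and 3, and 283, 336, 519 and 504 without shKmt2f replicates 1 to 4. The median log2 fold change of all genes was 0.09, and -0.02 with median-ratio scaling. The longest listed transcript of Setd1a, of 6487 bases, was at 0.767, 0.959 and 0.764 TPM in the controls and 0.407, 0.328, 0.374 and 0.432 TPM in shKmt2f (exact permutation p = 0.0286, two-sided, the smallest that 35 splits allow). The sum over all Setd1a transcripts was 8.95 ± 2.36 TPM in the controls (SD, n = 3) and 6.94 ± 1.71 TPM in shKmt2f (SD, n = 4), with overlapping groups and a limma adjusted p of 0.365.

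Cell type markers were read against the 14.1% of all tested genes that limma called (10.4% higher, 3.69% lower). Of 11 progenitor markers, 0 rose and Hes5 and Ccnd1 fell (18.2% called; unadjusted p under 0.05 for 1 higher and 3 lower), and their summed level was 1185 to 1508 TPM in the controls and 1017 to 1160 TPM in shKmt2f. Of 6 photoreceptor precursor markers, 4 rose (Otx2, Crx, Prdm1 and Neurod1, 66.7%) and 0 fell, with sums of 542 to 756 TPM against 1056 to 1351 TPM. At an unadjusted p under 0.05 limma counted 5 of them higher and 0 lower, and 1 of the 6 fold changes was negative. Of 7 ganglion cell markers, 3 could be tested (Isl1, Gap43 and Nefl), and all 3 were called higher. Isl1 (0.720, 1.35 and 1.99 TPM in the controls) and Nefl (0.745, 1.17 and 0.506 TPM) passed the filter only through the shKmt2f libraries. Their calls are therefore no support for a rise of the list. The list summed to 11.3 to 17.1 TPM in the controls and 27.4 to 32.0 TPM in shKmt2f, most of it Gap43. The untested Sncg, Rbpms, Pou4f1 and Pou4f2 were at 68.0%, 117.1%, 222.0% and 148.8% of their control means, at low levels. The defining factors Pou4f1 and Pou4f2 stayed below 0.490 TPM in every library. Of 7 Müller glia markers, Glul fell and 0 rose by limma (14.3% called; unadjusted p under 0.05 for 1 higher and 1 lower), while 6 of the 7 fold changes were positive, with a median of 0.21. Markers of pigment epithelium summed to at most 0.857 TPM, of microglia to at most 1.54 TPM and of astrocytes to at most 0.531 TPM, over the 2, 1 and 2 genes of those lists analysed here, and no red cell marker was analysed. Among endothelial genes Kdr and Cldn5 were present in both groups (adjusted p = 0.685 and 0.488), while Pecam1 was at most 0.160 TPM. The part of these marker levels in the results below was not tested, and in sorted bulk cells fewer cells of a type and less RNA per cell cannot be told apart.

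Of the 8 cholesterol genes, Sqle fell in shKmt2f and none rose. All 8 passed the filter on low values. Sqle was lower by 0.48 on the log2 scale and stood at 71.0% of its control mean. The 1 call among 8 genes is 12.5%, against 14.1% of all tested genes, of which 10.4% were called higher and 3.69% lower, so the share called was near the background. At an unadjusted p under 0.05, limma counted 2 higher (Idi1 and Cyp51) and 3 lower (Fdps, Fdft1 and Sqle). The groups did not overlap for 2 of the 8, Fdft1 and Sqle, or 25.0%, against 28.9% of all tested genes. The median log2 fold change of the 8 was -0.03, with 4 positive and 4 negative.

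**Figure D1:**
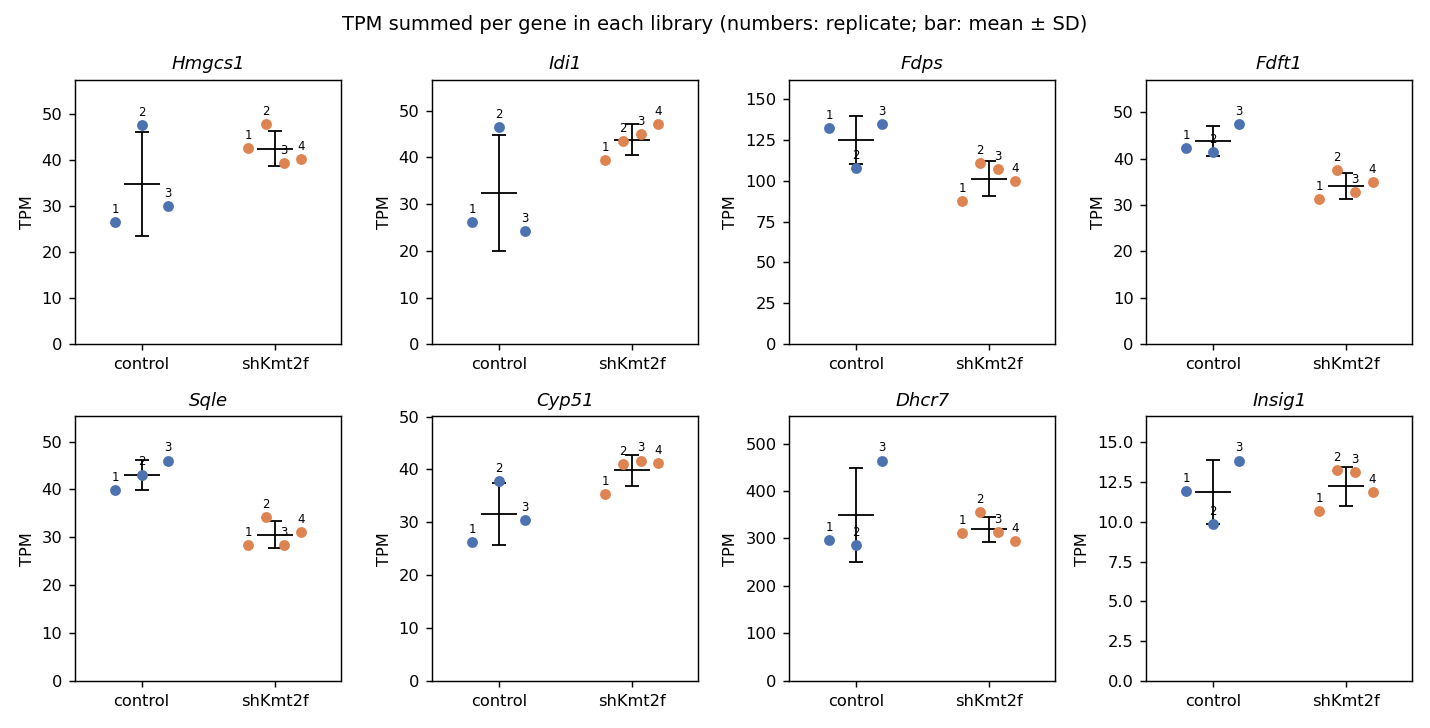
Levels of the 8 genes, 1 panel a gene, with TPM summed over transcripts on each vertical axis starting at 0 and the 3 control and 4 shKmt2f libraries as numbered points (bars: mean ± SD). Sqle and Fdft1 have all shKmt2f points below all control points, and control replicate 2 stands above the other controls for Hmgcs1, Idi1 and Cyp51.

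Hmgcs1 encodes HMG-CoA synthase, which joins acetyl units in an early step of the pathway. In GRCm38 it spans 119690379 to 119708260 of chromosome 13 (plus strand). Its level was 26.6, 47.5 and 30.0 TPM in control replicates 1 to 3 and 42.7, 47.8, 39.2 and 40.1 TPM in shKmt2f replicates 1 to 4. Control replicate 2 was as high as the knockdown libraries, so the groups overlapped, while control replicates 1 and 3 were below all 4 of them. The means were 34.7 ± 11.2 TPM (SD, n = 3) and 42.4 ± 3.86 TPM (SD, n = 4), which differ by 0.32 ± 0.19 (SE) on the log2 scale (limma adjusted p = 0.286).

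Idi1 encodes isopentenyl diphosphate isomerase, which supplies the second isoprenoid unit used in chain building (chromosome 13, 8885501 to 8892451, plus strand). It had the same shape, with 26.1, 46.6 and 24.2 TPM in the controls and 39.4, 43.6, 45.1 and 47.2 TPM in shKmt2f. Again control replicate 2 lay among the knockdown libraries and the other controls lay below them. The groups differed by 0.49 ± 0.21 (SE) on the log2 scale (limma adjusted p = 0.154), with means of 32.3 ± 12.4 TPM (SD, n = 3) and 43.8 ± 3.28 TPM (SD, n = 4).

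Fdps encodes farnesyl diphosphate synthase, at the branch point between sterols and other isoprenoids (chromosome 3, 89093588 to 89101959, minus strand). Its levels were 132.0, 107.8 and 134.8 TPM in the controls and 87.3, 111.0, 107.1 and 99.9 TPM in shKmt2f. Here control replicate 2 was the low control and fell below shKmt2f replicate 2, and the other controls were above every knockdown library. On the log2 scale the difference was -0.30 ± 0.13 (SE), with a limma adjusted p of 0.141. A processed pseudogene of 121 bases, Gm48326, matches Fdps at 96.7% identity and was listed at 229.0 TPM in the controls and 214.3 TPM in shKmt2f on average, so the level of Fdps is uncertain. With the copy added to Fdps, the log2 fold change was -0.16 (adjusted p = 0.355).

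Fdft1 encodes squalene synthase, the first enzyme committed to sterols. Its position is chromosome 14, 63145150 to 63179578, minus strand. Its level was 42.2, 41.5 and 47.5 TPM in the controls and 31.3, 37.6, 32.8 and 34.9 TPM in shKmt2f. All 4 knockdown libraries were below all 3 controls. The means were 43.8 ± 3.28 TPM (SD, n = 3) and 34.2 ± 2.73 TPM (SD, n = 4), a log2 fold change of -0.35 (SE 0.11) with a limma adjusted p of 0.0729 that misses the threshold. The exact permutation p was 0.0286 (two-sided), the smallest possible. Fdft1 passed the limma threshold under 4 other settings: median-ratio scaling (-0.47, adjusted p = 0.0263), the GC and length correction (-0.42, 0.0261), length-weighted sums (-0.46, 0.0199) and scaling to protein-coding transcripts (-0.41, 0.0448). The shares of all genes called lower there were 6.65%, 5.36%, 6.76% and 4.45%. Fdft1 missed the limma threshold in every fit that left out 1 library (adjusted p from 0.0575 to 0.188) and with the replicate block (0.213). The span of Fdft1 overlaps that of Ctsb, on the opposite strand, by 774 bases, and exons were not compared. Where exons of the 2 genes overlap, their reads cannot be told apart without strand. Ctsb was at 141.0 ± 17.1 TPM (SD, n = 3) and 129.7 ± 15.3 TPM (SD, n = 4).

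Sqle encodes squalene epoxidase, a rate-controlling enzyme of the pathway (chromosome 15, 59315077 to 59331192, plus strand). Its levels were 39.9, 43.1 and 46.0 TPM in the controls and 28.4, 34.2, 28.5 and 31.2 TPM in shKmt2f. The highest knockdown library was below the lowest control, and the spread within each group was small, with means of 43.0 ± 3.08 TPM (SD, n = 3) and 30.6 ± 2.77 TPM (SD, n = 4). Sqle fell by 0.48 on the log2 scale (SE 0.12, 95% interval -0.75 to -0.21, limma adjusted p = 0.0349). The exact permutation p was 0.0286 (two-sided), the smallest possible. The call was lost without control replicate 1, control replicate 3 or any 1 shKmt2f replicate, with adjusted p values up to 0.0974, and among the fits without 1 library it held only without control replicate 2 (0.0333). Its direction was the same in all 17 other settings.

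Cyp51 encodes lanosterol demethylase, which starts the conversion of the first sterol (chromosome 5, 4081145 to 4104746, minus strand). Its level was 26.3, 37.9 and 30.4 TPM in the controls and 35.4, 41.0, 41.7 and 41.2 TPM in shKmt2f. Control replicate 2 exceeded shKmt2f replicate 1, and the groups otherwise stood apart. On the log2 scale the difference was 0.34 ± 0.14 (SE), with a limma adjusted p of 0.139. The span of Cyp51 overlaps that of Akap9, on the opposite strand, by 166 bases, and exons were not compared. Akap9 was at 76.3 ± 16.6 TPM (SD, n = 3) and 102.9 ± 7.32 TPM (SD, n = 4), with a limma adjusted p of 0.0726.

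Dhcr7 encodes the reductase of the last step to cholesterol (chromosome 7, 143823145 to 143848410, plus strand). Its summed level was 297.4, 286.7 and 464.3 TPM in the controls and 311.9, 355.1, 313.7 and 295.5 TPM in shKmt2f. Control replicate 3 was the highest library, and the remaining 6 lay close together without a division by group. The log2 fold change was -0.10 (95% interval -0.49 to 0.29, limma adjusted p = 0.735), and 0.12 without control replicate 3 (adjusted p = 0.483).

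Insig1 (chromosome 5, 28071363 to 28078662, plus strand) encodes an INSIG protein and is itself a target of SREBP. Its level was 12.0, 9.83 and 13.9 TPM in the controls and 10.7, 13.3, 13.1 and 11.9 TPM in shKmt2f, and the groups overlapped fully. The log2 fold change was 0.05 (95% interval -0.31 to 0.40, limma adjusted p = 0.869). A pseudogene of 189 bases, Gm37784, matches Insig1 at 98.9% identity and was listed at 156.3 and 160.4 TPM in the group means, so reads may have been split between the copies.

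Without control replicate 2, limma called 5 of the 8 genes. Hmgcs1 (0.57, adjusted p = 0.016), Idi1 (0.78, 0.00347) and Cyp51 (0.48, 0.0289) were then higher in shKmt2f, and Fdps (-0.40, 0.0492) and Sqle (-0.48, 0.0333) lower. In that fit 19.7% of all genes were called higher and 4.62% lower. The positive fold changes of Hmgcs1 and Idi1 turned negative after the GC and length correction (-0.16 and -0.14), while that of Cyp51 stayed positive (0.23). Relative to the shift of the median gene, taken out by median-ratio scaling, the fold changes were 0.20 for Hmgcs1, 0.37 for Idi1, 0.22 for Cyp51, -0.42 for Fdps, -0.47 for Fdft1 and -0.60 for Sqle.

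**Figure D2:**
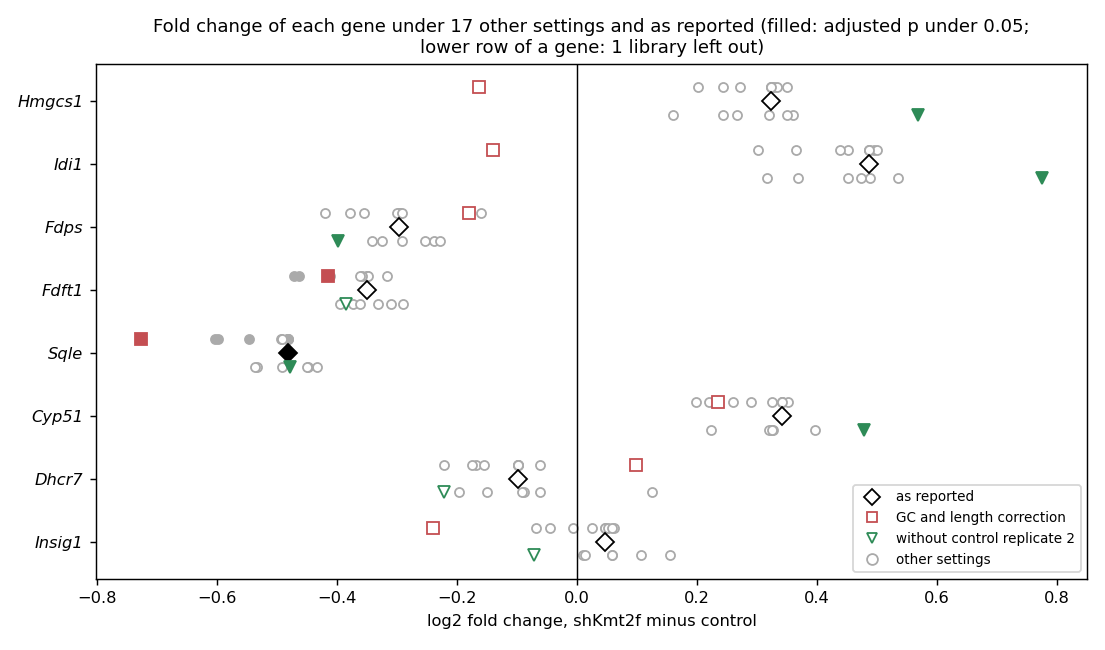
Log2 fold change (horizontal axis) of each gene as reported and under 17 alternatives, with filled symbols where the adjusted p was under 0.05. Sqle, Fdft1 and Fdps lie below 0 throughout and Cyp51 above 0, whereas the squares for the GC and length correction put Hmgcs1 and Idi1 below 0.

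Within a library, the ratio of 2 summed levels shows the same division. These ratios were chosen after the values were seen and carry no test. The ratio of Sqle to Hmgcs1 was 1.50, 0.907 and 1.54 in the controls and between 0.665 and 0.778 in shKmt2f. The ratio of Fdps to Idi1 was 5.07, 2.31 and 5.57 in the controls and between 2.12 and 2.55 in shKmt2f, so that control replicate 2 lay inside the knockdown range.

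The order of the summed levels, which are per length, was Dhcr7, Fdps, Fdft1, Sqle, Hmgcs1, Idi1, Cyp51 and Insig1 by control means. Dhcr7 exceeded Fdps, and Fdps exceeded Fdft1, in all 7 libraries. The 5 genes from Fdft1 to Cyp51 overlapped in their control ranges with their neighbours, and Sqle exceeded Hmgcs1 in only 2 of the 7 libraries. Insig1 was below Cyp51 in all 7. Counting protein-coding transcripts alone, Fdps stood first at 123.9 ± 14.9 TPM in the controls (SD, n = 3), Dhcr7 was in place 5 at 31.6 ± 7.78 TPM (SD, n = 3) and Cyp51 last at 8.70 ± 2.37 TPM (SD, n = 3).

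The 33 transcripts, of which 20 are annotated as protein coding, show what the sums are made of. Of the 26 that could be tested, limma called 0, with 7 at an unadjusted p under 0.05 (3 of them higher), against 2.24% of all transcripts called. The authors' deposited table gave a q under 0.05 for 2 of the 33, against 5.52% of all transcripts: Sqle-201 (effect -0.43 on the natural log scale, q = 0.000255) and Fdft1-201 (effect -0.35, q = 0.0104). Sqle-201, the full coding transcript of 2758 bases, made up 99.0% to 99.8% of Sqle in each library. It was at 42.7 ± 2.94 TPM in the controls (SD, n = 3) and 30.3 ± 2.74 TPM in shKmt2f (SD, n = 4), with a limma adjusted p of 0.0632. For Fdft1 the largest share, 53.9% to 58.9%, was Fdft1-202, an 808-base transcript annotated for nonsense-mediated decay. Of its bases, 670 lie in the coding sequence of other Fdft1 transcripts, so this share is an estimate. The coding transcript Fdft1-201 was at 16.6, 18.2 and 18.5 TPM in the controls and 12.3, 14.2, 13.7 and 14.0 TPM in shKmt2f (exact permutation p = 0.0286, two-sided, limma adjusted p = 0.11). Fdft1-202 was at 24.9 ± 2.74 TPM (SD, n = 3) and 19.5 ± 1.98 TPM (SD, n = 4), with an exact permutation p of 0.0571 (two-sided) and a limma adjusted p of 0.17. Neither transcript passed the limma threshold, although the groups did not overlap for either.

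By TPM, Dhcr7 was mostly a short form annotated as non-coding. Dhcr7-213, a processed transcript of 230 bases in 2 exons, held 82.9% to 85.7% of the gene's TPM. All of its bases lie in the coding sequence of other Dhcr7 transcripts, so this share is an estimate that may include their reads. Its level was 247.0, 240.8 and 396.4 TPM in the controls and 267.3, 300.7, 263.2 and 245.1 TPM in shKmt2f. The coding transcripts summed to 31.6 ± 7.78 TPM (SD, n = 3) and 27.4 ± 2.37 TPM (SD, n = 4). Cyp51 likewise drew 55.0% to 64.2% of its TPM from Cyp51-202, a processed transcript of 528 bases. Of these bases, 492 lie in the coding sequence of other Cyp51 transcripts, so the same limit holds. Cyp51-202 was at 18.1 ± 3.07 TPM (SD, n = 3) and 23.9 ± 3.06 TPM (SD, n = 4). Cyp51-201, the coding form, was at 8.70 ± 2.37 TPM (SD, n = 3) and 10.4 ± 0.557 TPM (SD, n = 4), and the retained-intron form Cyp51-204 at 2.86 ± 0.538 TPM (SD, n = 3) and 4.31 ± 0.299 TPM (SD, n = 4).

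The other genes rested mainly on coding transcripts. Hmgcs1-201 held 79.7% to 90.6% of Hmgcs1. Idi1 was divided between Idi1-201, of 3027 bases, and Idi1-204, of 581 bases. Idi1-204 was at 4.99, 10.1 and 5.28 TPM in the controls and 11.9, 9.34, 13.7 and 13.1 TPM in shKmt2f (exact permutation p = 0.0571, two-sided), where control replicate 2 again lay among the knockdown libraries. Fdps was divided almost evenly between Fdps-206, Fdps-202 and Fdps-201, each with 27.9% to 36.7% of the gene's TPM in every library. Insig1-201 held 82.6% to 91.8% of Insig1.

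**Figure D3:**
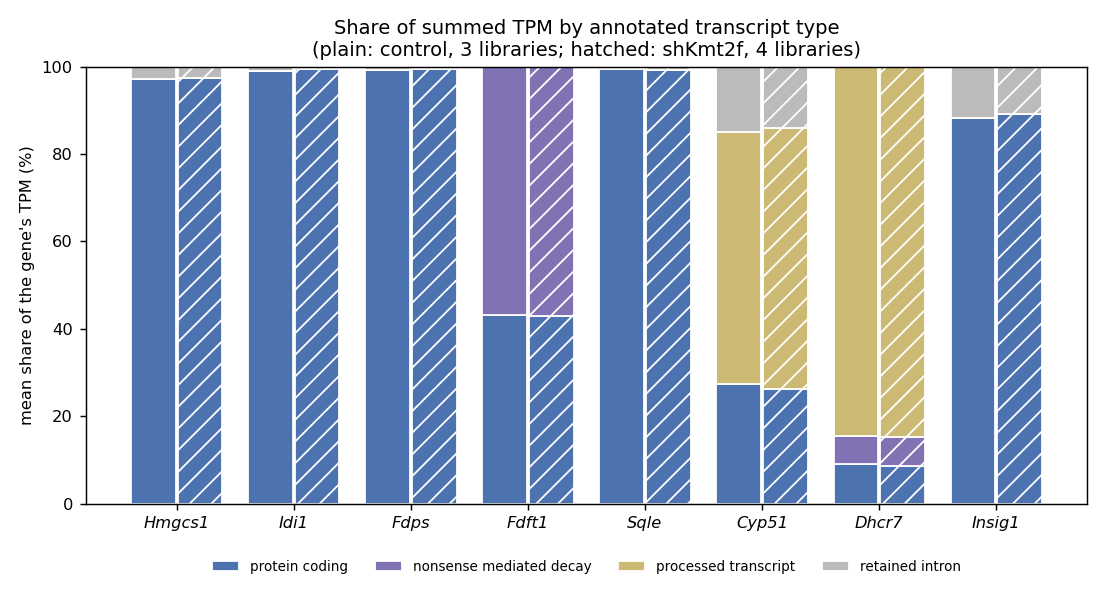
Mean share of each gene's summed TPM (vertical axis, percent) by annotated transcript type, with plain bars for the 3 controls and hatched bars for the 4 shKmt2f libraries. Processed transcripts take most of Dhcr7 and Cyp51 and a decay-annotated transcript most of Fdft1, with similar shares in both groups.

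The rest of the pathway was read from a list of 14 further enzymes, all of which passed the filter. Limma called 1 lower and 0 higher (unadjusted p under 0.05 for 3 lower and 0 higher), or 7.14% against 14.1% of all tested genes. Their median log2 fold change was -0.11, against 0.09 for all tested genes, with 11 negative and 3 positive. Ebp, the sterol isomerase that acts late in the pathway, fell. It was at 62.0, 50.0 and 60.0 TPM in the controls and 38.8, 44.0, 36.7 and 36.8 TPM in shKmt2f, and all knockdown libraries were below all controls. The difference was -0.54 ± 0.12 (SE) on the log2 scale (limma adjusted p = 0.0305), and the adjusted p lay between 0.00758 and 0.0959 when 1 library was left out. Among those fits the Ebp call held only without control replicate 2.

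Groups also did not overlap for Hsd17b7, a ketosteroid reductase of the demethylation steps. Hsd17b7 was at 6.11, 5.78 and 5.49 TPM in the controls and 2.47, 4.63, 3.90 and 3.74 TPM in shKmt2f (log2 fold change -0.56, limma adjusted p = 0.0747). It is a gene of low level and missed the threshold. Around squalene, Lss, which closes the sterol rings, had a log2 fold change of -0.21 (adjusted p = 0.461), and Msmo1, a sterol oxidase of the later demethylation steps, of -0.11 (adjusted p = 0.549). Sc5d, a late desaturase, was one of the 3 with a positive value (0.31, adjusted p = 0.304).

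**Figure D4:**
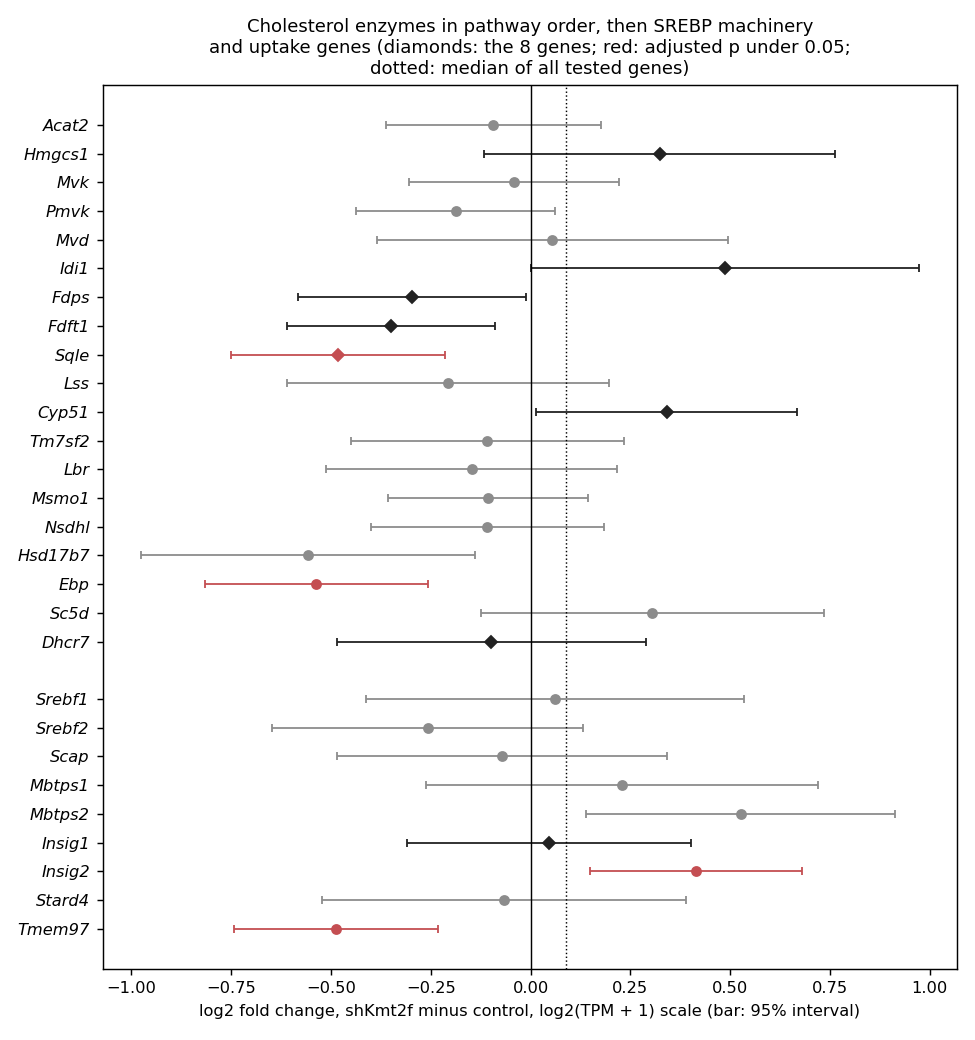
Log2 fold change with its 95% interval (horizontal axis, shKmt2f minus control) for enzymes in pathway order and then for SREBP machinery and uptake genes, with diamonds for the 8 genes described here and red for an adjusted p under 0.05. Sqle, Ebp and Tmem97 lie below 0 and Insig2 above 0 among the called genes, and the dotted line marks the median of all tested genes at 0.09.

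The SREBP machinery was measured by 6 genes besides Insig1, and limma called 1 of them higher and 0 lower (unadjusted p under 0.05 for 2 higher and 0 lower), 16.7% against 14.1% of all tested genes. Insig2, the second INSIG protein, rose from 112.7, 120.5 and 137.9 TPM in the controls to 145.5, 172.2, 161.0 and 182.4 TPM in shKmt2f, without overlap (log2 fold change 0.41, SE 0.12, adjusted p = 0.0481). This call was lost in 15 of 17 other settings, with adjusted p values up to 0.149, among them every fit that left out 1 library. A 204-base transcript held 50.9% to 61.6% of Insig2 in each library. Its groups overlapped, with 58.7 to 81.0 TPM in the controls and 78.7 to 112.3 TPM in shKmt2f. The exact permutation p of this transcript was 0.0857 (two-sided), and the authors' deposited q was 0.817. Mbtps2, the protease of the second cut of SREBP, was at 11.8, 9.80 and 8.78 TPM in the controls and 18.4, 12.4, 15.4 and 14.2 TPM in shKmt2f, without overlap and with an adjusted p of 0.0702. Mbtps1, the protease of the first cut, overlapped between the groups (0.23, adjusted p = 0.506). Srebf2 itself was at 34.6, 34.5 and 50.7 TPM in the controls and 28.5, 38.7, 33.5 and 30.9 TPM in shKmt2f (-0.26, adjusted p = 0.338). Srebf1 (0.06, adjusted p = 0.873) and Scap (-0.07, adjusted p = 0.823) had intervals that included 0.

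Of 3 SREBP2 targets in sterol uptake and transport, 1 fell and 0 rose, or 33.3% against 14.1%. Tmem97, an endoplasmic reticulum protein that binds sterols, was at 57.0, 48.6 and 54.9 TPM in the controls and 34.2, 37.5, 39.5 and 40.2 TPM in shKmt2f. The groups did not overlap (-0.49, SE 0.11, limma adjusted p = 0.0307), and without 1 library the adjusted p lay between 0.011 and 0.095, passing only without control replicate 2. Stard4, a cytosolic sterol carrier, had a log2 fold change of -0.07 (adjusted p = 0.853).

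Genes that respond to sterol excess through the LXR receptors, with genes of sterol export, form a list of 9, of which 8 passed the filter. Limma called 2 higher and 0 lower (unadjusted p under 0.05 for 2 higher and 1 lower), 25.0% against 14.1% of all tested genes. Abca1, which exports cholesterol to lipid-poor apolipoproteins, rose from 0.954, 1.93 and 2.17 TPM in the controls to 7.51, 8.21, 4.72 and 4.80 TPM in shKmt2f. The lowest knockdown library was above the highest control (log2 fold change 1.44, SE 0.25, adjusted p = 0.0156). Without 1 library its adjusted p lay between 0.00834 and 0.05, the highest without control replicate 1, and Abca1 is not tested under a filter of 5 TPM. Control replicate 1 was below 1 TPM, so Abca1 entered the test only through the shKmt2f libraries. It is counted in the 25.0% all the same. With no filter its limma adjusted p was 0.0234. Abcg1, a second exporter, rose from 8.92, 10.3 and 13.0 TPM to 19.9, 20.9, 17.9 and 16.0 TPM (0.75, SE 0.16, adjusted p = 0.0266). Length-weighted sums leave out its main transcript, which holds 91.4% to 97.0% of Abcg1 and has no matched length, and the remaining form gave 0.24 (adjusted p = 0.511). The Abcg1 call was also lost without control replicate 1 or shKmt2f replicate 1, 2 or 3 (adjusted p values up to 0.0842). Cyp46a1, the neuronal enzyme that clears cholesterol as a hydroxysterol, was at 9.05, 12.4 and 12.7 TPM in the controls and 6.05, 8.30, 4.67 and 7.64 TPM in shKmt2f, without overlap (-0.70, adjusted p = 0.0562). Mylip, a ubiquitin ligase induced by LXR, had a log2 fold change of 0.37 (adjusted p = 0.183).

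The non-sterol isoprenoid branch, which starts from the product of Fdps, was represented by 10 genes, of which 2 rose and 1 fell, or 30.0% against 14.1%. Ggps1, which lengthens farnesyl to geranylgeranyl diphosphate, rose from 22.5, 32.9 and 24.5 TPM to 54.9, 58.4, 53.1 and 47.7 TPM. All knockdown libraries exceeded all controls (log2 fold change 1.00, SE 0.15, adjusted p = 0.012), and Ggps1 passed the threshold in all 17 other settings, although its value was 0.50 after the GC and length correction. Pggt1b, the catalytic subunit of geranylgeranyl transferase, rose from 2.77, 3.85 and 2.31 TPM to 6.39, 5.87, 5.28 and 5.50 TPM (0.78, SE 0.17, adjusted p = 0.0266). Fnta, the subunit shared by the farnesyl and geranylgeranyl transferases, fell from 96.9, 98.0 and 100.5 TPM to 73.1, 81.4, 76.8 and 80.2 TPM (-0.34, SE 0.09, adjusted p = 0.0444). The Pggt1b and Fnta calls were lost in most fits without 1 library, with adjusted p values up to 0.0838 and 0.131, and each passed there only without control replicate 2. Nus1, a subunit of the enzyme that makes dolichol chains, was at 2.81, 5.98 and 3.09 TPM in the controls and 7.86, 6.98, 5.37 and 6.84 TPM in shKmt2f (0.69, adjusted p = 0.0789).

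**Figure D5:**
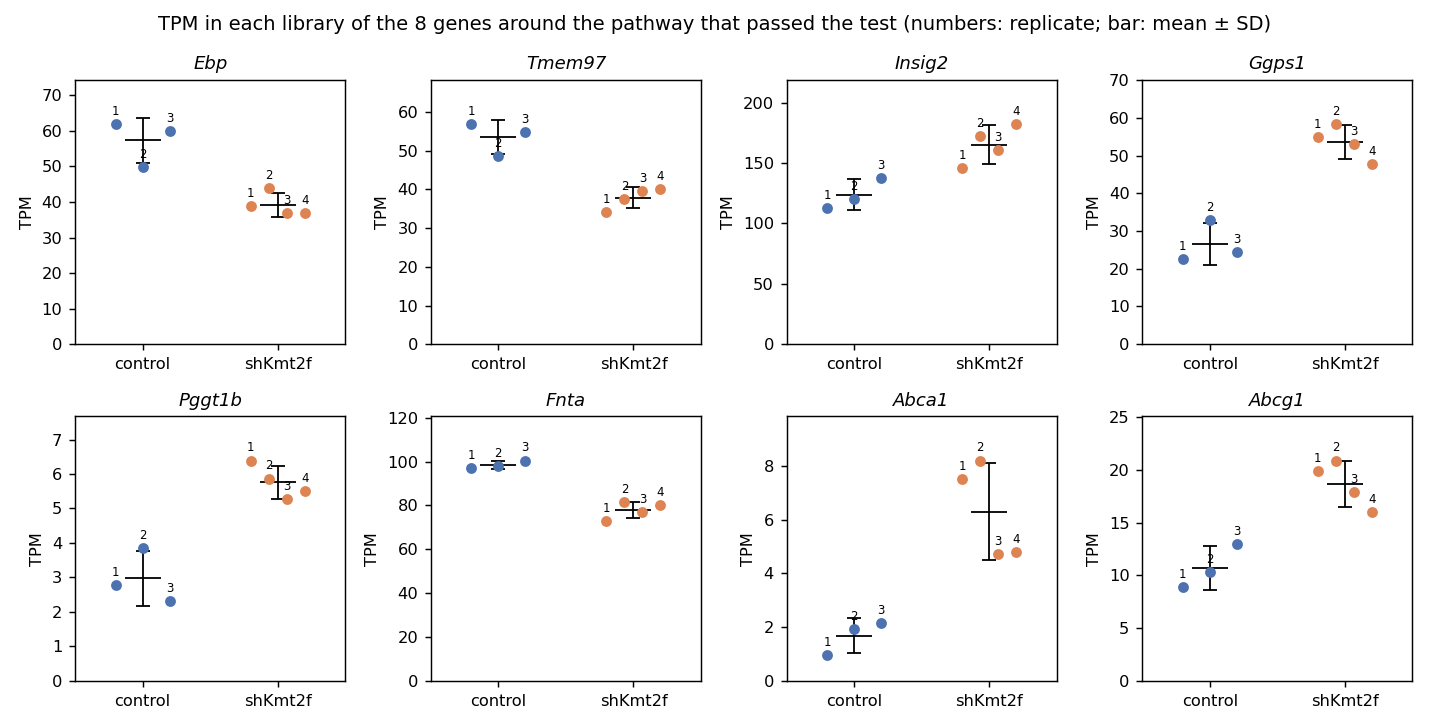
TPM (vertical axes from 0) in each numbered library for the 8 genes around the pathway that passed the threshold, with mean ± SD. In every panel the 4 shKmt2f points lie on 1 side of the 3 control points, below them for Ebp, Tmem97 and Fnta and above them for the others. Genes chosen by the threshold mostly separate in this way, so this adds no support to the calls. Groups did not overlap for 28.9% of all tested genes.

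In the list of fatty acid targets of SREBP1, limma called 0 of the 11 genes that passed the filter, against 14.1% of all tested genes, with 2 higher and 0 lower at an unadjusted p under 0.05. Scd2, a fatty acid desaturase, was at 87.3, 96.4 and 143.4 TPM in the controls and 132.4, 169.7, 129.2 and 110.5 TPM in shKmt2f (0.33, adjusted p = 0.292). Acly, which supplies cytosolic acetyl-CoA, had a log2 fold change of 0.22 (adjusted p = 0.513). For NF-Y and Sp1, the partners of SREBP at promoters, limma called 0 of 5 genes, again against 14.1%, with 1 higher at an unadjusted p under 0.05. Nfyc (0.10, adjusted p = 0.643) and Nfyb (-0.17, adjusted p = 0.623), the subunits of highest level, had groups that overlapped.

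The 5 protein-coding genes whose profile over the 7 libraries was most like the mean centred profile of the 8 genes were Timm44, Hspbap1, Mrps30, Hnrnpf and Creld1. Likeness was the root mean square difference of log2(TPM + 1) centred on each gene's mean, over 8807 genes compared. It was 0.0256 for Timm44, 0.0354 for Hspbap1, 0.0359 for Mrps30, 0.0383 for Hnrnpf and 0.0385 for Creld1, against a median of 0.23 over all genes compared. The mean profile was nearly level, from -0.13 in control replicate 1 to 0.11 in shKmt2f replicate 2, because positive and negative members offset each other.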

How the data were processed

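Salmon 0.11.3, sleuth 0.30.0 and the build GRCm38.p6 are named, per the submitters' processing notes. The authors deposited 1 table of transcripts per library, in TPM. The p-value, q-value and effect (natural log scale) columns of the deposited tables, identical in all 7, are the authors' own test. Of 55475 rows, 71 hold no TPM. TPM totals were 991445 to 992309 per library. TPM was summed per gene, and genes reaching 1 TPM in 3 or more libraries entered limma 3.58.1 (trend, robust; R 4.3.3) on log2(TPM + 1), shKmt2f minus control, with Benjamini-Hochberg adjustment. This scale understates changes of low genes. Exact two-sided permutation tests used all 35 splits (log2(TPM + 0.1) for transcripts). The limma script was tested on simulated data. Transcript types were those given by the authors. Lengths, GC content and positions came from GENCODE M21, and pseudogene copies from blastn 2.17.0 at 90% identity over 50% of their length. Of the 17 alternatives, 7 each left out 1 library. Others used no filter, a 5 TPM filter, a 0.1 pseudocount, median-ratio scaling or a per-library loess correction for GC content and length (span 0.3). The rest were sums weighted by transcript length, protein-coding transcripts only, scaling to their total, pseudogene copies added, and the replicate block without shKmt2f replicate 4. All 8 genes and every measured enzyme and SREBP machinery gene could be named; of other lists, the 4 members of smallest adjusted p or, where none passed, the 2 of highest level. The genes and lists were chosen with earlier results of these data known. A few list members are counted but not reported by name here.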

Additional observations from a re-analysis of the deposited data

Results flagged for a closer look

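In the shKmt2f group of 4 libraries, 1 library stood far from the others for 5 of the 65 genes of the pathway lists, by Dixon's criterion at its 95% level. Chance gives about 1 in 20. For Cyp51, replicate 1 was at 35.4 TPM and the others at 41.0 to 41.7 TPM. For Scap, replicate 2 was at 112.0 TPM against 72.9 to 77.7 TPM. For Acss2, replicate 3 was at 14.4 TPM against 16.5 to 16.6 TPM, and for Elovl6 the same replicate was at 9.53 TPM against 10.2 to 10.3 TPM. For Pdss1, replicate 1 was at 9.44 TPM against 13.4 to 13.8 TPM. Acss2, Elovl6 and Pdss1 are named because of these values. Groups of 3, such as the controls, were not examined in this way.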

How the results depend on the processing

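The number of genes called ranged from 283 to 3004 when 1 library was left out and from 1264 to 2374 under the other 10 settings. Of the 8 genes, between 0 and 5 were called when 1 library was left out, and 2 under the GC and length correction, length-weighted sums, median-ratio scaling or scaling to protein-coding transcripts (Sqle and Fdft1). Of the 14 other enzymes, between 0 and 1 were called when 1 library was left out, and 3, with Hsd17b7 and Ebp among them, under the GC and length correction, length-weighted sums or median-ratio scaling. Fdps, Fdft1 and Sqle were negative, and Cyp51 positive, in all 17 settings. After the GC and length correction the log2 fold change was -0.16 for Hmgcs1 (adjusted p = 0.311), -0.14 for Idi1 (0.474), 0.10 for Dhcr7 (0.72) and -0.24 for Insig1 (0.376). Insig1 was also at -0.045 with length-weighted sums (0.854), -0.069 with median-ratio scaling (0.775) and -0.0065 with scaling to protein-coding transcripts (0.983). Without 1 library, Dhcr7 ranged from -0.22 to 0.12 and Insig1 from -0.072 to 0.16. The cause of these changes was not tested.

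The labels do not say whether the replicate numbers pair the libraries. Deviations of same-numbered libraries from their group means correlated at r = 0.0793, 0.0651 and 0.0597 across genes, which are not independent replicates. None of the 3 controls correlated best with its own number. In groups this small these values cannot decide whether the libraries are paired. The limma fit with the replicate block left out shKmt2f replicate 4, which has no control of its number. It called 1380 genes, 0 of the 8 (1 at an unadjusted p under 0.05) and 0 of the 14 enzymes (2 at an unadjusted p under 0.05). Sqle had a limma adjusted p of 0.0996 there, and of 0.078 without that library and without the block. TPM keeps no depth, so the precision of low values such as those of Hsd17b7 and Abca1 is unknown.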
